A study of Mus musculus with 2 samples.

Results

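The vascular endothelial growth factors (VEGFs) and the angiopoietins are secreted ligands read mainly by endothelial cells, which line the blood vessels and, as endocardium, the chambers of the heart. Vegfa is the main ligand of the receptor Kdr, which drives endothelial growth and also marks early mesoderm progenitors. Flt1 binds Vegfa and Vegfb and holds much of the ligand away from Kdr, and Flt4 is the receptor of Vegfc and is used by veins and lymphatic vessels. Tek (Tie2) is the receptor of the angiopoietins, of which Angpt1 activates it and Angpt2 acts on it differently by context. These 9 genes were taken by symbol from the deposited gene list, in which each matched 1 of 27998 genes.

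The cells came from Swiss Webster mouse embryos at embryonic day 9.5 (E9.5), from pharyngeal apparatus and heart, and were sorted as GFP-positive and DAPI-negative (live). One library, Ctrl, carried Mesp1Cre;Rosa26-GFPflox/+, and the other, cKO, carried Mesp1Cre;Rosa26-GFPflox/+;Tbx1flox/flox, so that both held the driver and the reporter. Mesp1Cre acts in early mesoderm, which leaves cells outside that lineage unsampled, endothelium of other origin included. Each group was 1 library from a pooled pair of embryos, so no difference between them has a replicate check and no test was made. Intervals given below are 95% intervals that cover counting error only. What is compared is a pair of libraries, not a pair of genotypes. The study lists more somites for the embryos of the cKO library, and genotype, stage and library cannot be told apart.

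The matrices held 7418 (Ctrl) and 10281 (cKO) cell barcodes with 132017331 and 162874391 unique molecular identifiers (UMIs, each standing for 1 captured transcript). After filters 6591 and 8969 cells with medians of 16854 and 14192 UMIs were kept, and 15 barcodes occurred in both libraries. Levels are given as CPM, the UMIs of a gene relative to all UMIs of the cells of a class and library on the counts-per-million scale. Tbx1, the targeted gene, stood at 67.6 CPM (63.0 to 72.5) in Ctrl and at 133 CPM (128 to 139) in cKO in MLP-like cells. In BrM-like cells it stood at 121 and 95.1 CPM. A 3′ count does not show whether the deleted part was transcribed, so the higher level in MLP-like cells of cKO does not check the label. The libraries are called here by their labels only.

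Cells fell into 24 clusters made without the 9 genes. Of these, 2 clusters were endothelium-like, with 368 Ctrl cells (5.58%, 5.04 to 6.17) and 377 cKO cells (4.2%, 3.8 to 4.64). All 14 of the listed pan-endothelial markers were at least 2-fold higher in endothelium-like than in all other cells of either library, with medians of 7.58 and 6.98 on the log2 scale. These markers also named the clusters, so their excess is a description. The other classes compared were CM-like (cardiomyocytes, 264 and 469 cells), MLP-like (multilineage primed progenitors, 727 and 1087), BrM-like (branchiomeric muscle progenitors, 531 and 695), SoM/aSHF-like (anterior second heart field with somatic mesoderm, 891 and 1108), pSHF-like (posterior second heart field, 1512 and 1641), paraxial mesoderm-like (555 and 735) and epicardium-like (73 and 101). Names are those of the nearest marker list. Clusters that met under 3 or no majority of its markers, or had none of them among their 10 leading genes, were left unnamed, and held 1650 Ctrl (25.03%) and 2578 cKO cells (28.7%).

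**Figure D1:**
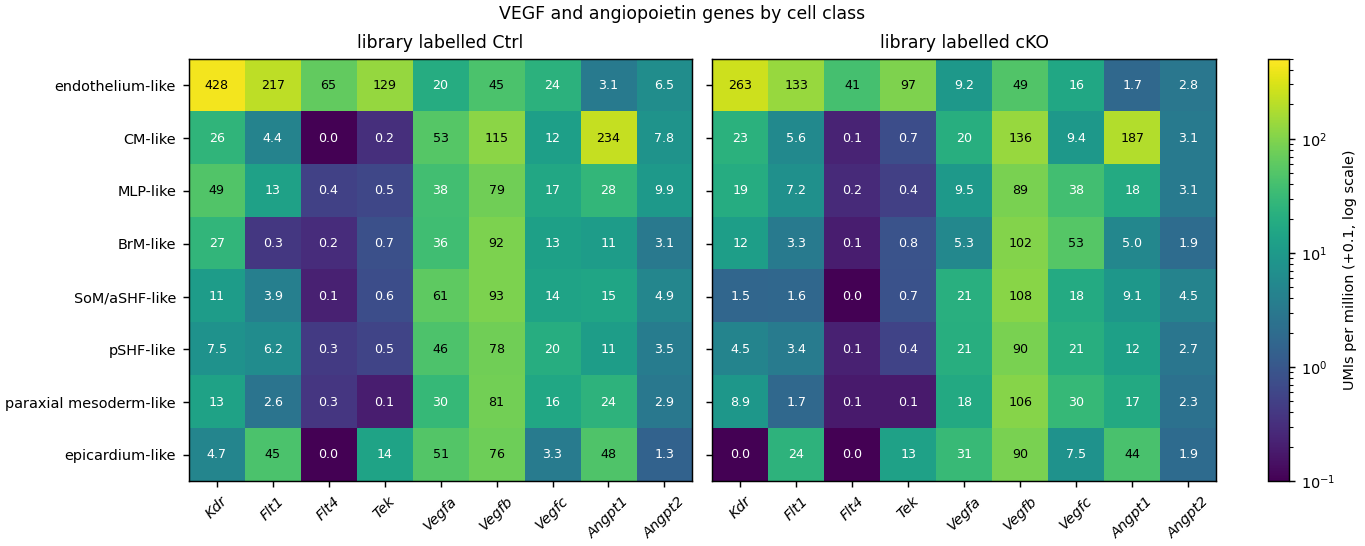
Levels of the 9 genes (columns) in 8 cell classes (rows) of each library, in CPM on a logarithmic colour scale with the value printed in each cell. The 4 receptor genes are highest in the endothelium-like row of both libraries, and Angpt1 is highest in the CM-like row.

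The 4 receptor genes were the members that marked endothelium. In Ctrl, Kdr stood at 428 CPM (412 to 444) in endothelium-like cells against 17.6 CPM in all other cells, and in cKO at 263 CPM (249 to 277) against 9.53. Flt1 stood at 217 against 5.96 CPM in Ctrl and at 133 against 3.71 in cKO. Tek stood at 129 against 3.03 CPM in Ctrl and at 97.0 against 2.25 in cKO. Flt4 was the most restricted of them, at 64.5 against 0.234 CPM in Ctrl and 40.5 against 0.0989 in cKO.

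On the log2 scale the endothelial excess in Ctrl was 4.60 for Kdr (4.52 to 4.69), 5.19 for Flt1 (5.05 to 5.32), 5.42 for Tek (5.23 to 5.60) and 8.11 for Flt4 (7.53 to 8.74). Thus 4 of the 8 members compared were at least 2-fold higher in endothelium-like cells of Ctrl, where 9.80% of all genes compared were. The same count, 4 of 8, was found in cKO, where 9.24% of genes were. Angpt2 was too low to be compared. At least 2-fold lower were 2 of 8 members in either library, beside 7.53% of genes in Ctrl and 7.38% in cKO. These were Vegfa (19.5 against 44.4 CPM) and Angpt1 (3.103 against 42.1) in Ctrl, and Vegfb (48.6 against 98.0) and Angpt1 (1.69 against 41.0) in cKO. Vegfc lay on different sides in the libraries, with 23.7 CPM in endothelium-like against 18.2 in other cells of Ctrl and 16.1 against 28.4 in cKO.

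The promoter windows of the 4 receptor genes are shown because these genes shared the endothelial pattern and were all lower in cKO. They are RefSeq windows of the GRCm38.p6 build, from 250 bases before to 50 after a transcript start, written 5′ to 3′ on the gene's strand. Capitals mark GGAAG or its reverse complement, which is the ETS factor core GGAA with its 3′ flank. Endothelial genes commonly use ETS factors, and a core with another flank is not marked.
Kdr, chr5:75978406-75978705, minus strand: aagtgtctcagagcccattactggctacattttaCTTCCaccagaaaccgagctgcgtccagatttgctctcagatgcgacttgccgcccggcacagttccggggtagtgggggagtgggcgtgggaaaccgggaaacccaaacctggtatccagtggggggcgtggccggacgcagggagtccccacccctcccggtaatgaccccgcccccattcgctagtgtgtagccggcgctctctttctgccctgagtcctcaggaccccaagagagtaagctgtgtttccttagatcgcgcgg
Flt1, chr5:147725962-147726261, minus strand: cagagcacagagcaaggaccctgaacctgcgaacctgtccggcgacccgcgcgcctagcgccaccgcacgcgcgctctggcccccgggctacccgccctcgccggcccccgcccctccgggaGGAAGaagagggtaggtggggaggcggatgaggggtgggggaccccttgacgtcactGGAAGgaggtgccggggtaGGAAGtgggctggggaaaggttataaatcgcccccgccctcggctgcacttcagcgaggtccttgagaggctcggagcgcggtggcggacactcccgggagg
Flt4, chr11:49609429-49609728, plus strand: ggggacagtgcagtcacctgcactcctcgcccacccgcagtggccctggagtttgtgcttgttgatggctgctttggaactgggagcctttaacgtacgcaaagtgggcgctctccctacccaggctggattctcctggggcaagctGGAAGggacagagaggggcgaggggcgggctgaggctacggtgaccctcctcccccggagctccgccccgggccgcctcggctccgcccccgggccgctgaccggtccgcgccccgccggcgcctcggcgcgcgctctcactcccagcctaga
Tek, chr4:94739039-94739338, plus strand: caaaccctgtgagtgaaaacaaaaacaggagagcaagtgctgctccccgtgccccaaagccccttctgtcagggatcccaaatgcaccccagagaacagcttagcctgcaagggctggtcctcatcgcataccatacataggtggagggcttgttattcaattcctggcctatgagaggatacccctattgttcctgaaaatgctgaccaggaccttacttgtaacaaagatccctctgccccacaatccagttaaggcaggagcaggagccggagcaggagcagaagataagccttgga
The window of Flt1 held 3 such words, those of Kdr and Flt4 1 each, and that of Tek 0. Of all 32851 promoter windows, 71.4% held the word on either strand, so that its presence in the first 3 does not set them apart. RefSeq windows were found for 7 of the 9 members. By RefSeq the genes lie at chr5:75932827-75979072 (Kdr), chr5:147561604-147726438 (Flt1), chr11:49609679-49652739 (Flt4) and chr4:94739086-94874976 (Tek).

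The endothelium-like cells held 2 clusters, which differed in their receptors. The first (225 Ctrl and 226 cKO cells) was led by Cldn5, Emcn and Sox18 and met 0 of 8 endocardium markers, and is called the vascular-type cluster. The second (143 and 151 cells) met 8 of 8, Nfatc1 and Hapln1 among them, and is endocardium-like. Kdr stood at 533 CPM (Ctrl) and 334 CPM (cKO) in the vascular-type cluster and at 265 and 140 CPM in the endocardium-like cluster. The difference on the log2 scale, endocardium-like minus vascular-type, was -1.01 (-1.14 to -0.88) and -1.25 (-1.45 to -1.06).

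Flt4 showed the widest gap of the receptors, with 90.9 and 59.1 CPM in the vascular-type cluster and 23.4 and 8.67 CPM in the endocardium-like one (log2 -1.96, -2.38 to -1.56, and -2.77, -3.58 to -2.05). Tek went the other way, with 96.5 and 75.4 CPM in the vascular-type and 180 and 134 CPM in the endocardium-like cluster (log2 0.90, 0.70 to 1.10, and 0.83, 0.58 to 1.08). Flt1 lay close in both, at 229 and 138 CPM against 198 and 124 CPM. Vegfc, the ligand of Flt4, was higher in the endocardium-like cluster, at 33.4 and 22.4 CPM against 17.6 and 12.5 CPM (log2 0.93, 0.45 to 1.41, and 0.85, 0.20 to 1.49). The order between the clusters was thus the same in both libraries for these genes.

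Of the other pathway genes, Nrp2, a co-receptor of Vegfc and Flt4, followed Flt4. It stood at 261 CPM (Ctrl) and 262 CPM (cKO) in the vascular-type cluster and at 46.5 and 36.2 CPM in the endocardium-like one. Tie1, the partner of Tek, and Ptprb, a phosphatase that acts on Tek, followed Tek. Tie1 stood at 50.7 and 41.6 CPM against 78.2 and 57.1 CPM in the endocardium-like cluster. Ptprb stood at 42.5 and 29.4 CPM against 74.7 and 70.4 CPM. Apln, a peptide of sprouting vessels, was at 23.2 and 11.9 CPM in the vascular-type cluster, with 4 and 0 UMIs in the endocardium-like one.

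**Figure D2:**
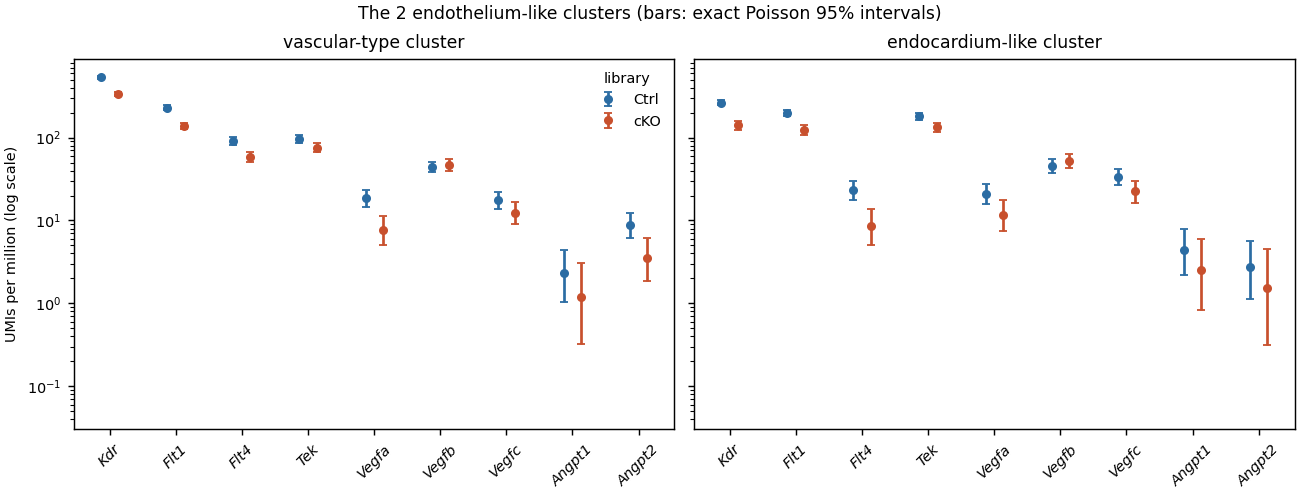
Level of each gene in CPM (log scale) in both endothelium-like clusters, Ctrl in blue and cKO in orange, with exact Poisson 95% intervals. Kdr and Flt4 are higher in the vascular-type cluster, Tek and Vegfc in the endocardium-like cluster, and the 4 receptors are lower in cKO in both.

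Between the libraries, the receptors of endothelium-like cells were lower in cKO. Kdr was 1.63-fold lower (log2 -0.70, -0.80 to -0.61), Flt1 1.63-fold lower (-0.71, -0.84 to -0.57), Flt4 1.59-fold lower (-0.67, -0.91 to -0.43) and Tek 1.33-fold lower (-0.41, -0.57 to -0.25). The Flt4 value was -0.48 in Y-only cells and -0.57 when scaled by the median ratio, both short of 1.5-fold. Vegfa, of which these cells held little, was 2.13-fold lower (-1.09, -1.59 to -0.60), Vegfc 1.47-fold lower (-0.56, -0.95 to -0.17), and Vegfb stood at 44.8 and 48.6 CPM (0.12, -0.13 to 0.36). Past 1.5-fold lower were 4 of the 7 members compared, Vegfa, Kdr, Flt1 and Flt4, beside 12.0% of 7784 genes. Past 1.5-fold higher were 0 of 7, beside 1.91% of genes.

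The median of the members compared was -0.67 on the log2 scale, that of all genes -0.10. Of the 14 further pathway genes, 7 could be compared, 3 of which were past 1.5-fold lower and 0 higher, with a median of -0.43. The 3 were Apln (14.7 and 7.51 CPM), Nrp1, a co-receptor of Kdr (226 and 128 CPM, log2 -0.82, -0.96 to -0.69), and Dll4, the Notch ligand of sprouting tips and arteries (11.9 and 7.51 CPM, -0.67, -1.26 to -0.10). Nrp2, second to Nrp1 in Ctrl and the highest of the list in cKO, stood at 177 and 179 CPM. The 14 pan-endothelial markers had a median of -0.09, and 1 of them, Fli1, was past 1.5-fold lower, at 174 and 103 CPM. Cdh5, the junction cadherin of endothelium, stood at 320 and 221 CPM (-0.53, -0.64 to -0.43).

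Markers of other classes were present at low levels in endothelium-like cells, where the 14 pan-endothelial markers summed to 4028 (Ctrl) and 3779 CPM (cKO). The 10 cardiomyocyte markers summed to 116 and 98.3 CPM, with 1 and 0 of them at 0, and the 8 MLP markers to 129 and 83.7 CPM, with 0 at 0. The 7 arterial markers summed to 341 and 202 CPM and the 8 endocardium markers to 1611 and 1101 CPM. Their part in the receptor differences was not tested. Within each endothelial cluster the receptors were also lower in cKO, Kdr by -0.67 (-0.78 to -0.57) in the vascular-type and -0.92 (-1.13 to -0.71) in the endocardium-like cluster on the log2 scale.

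**Figure D3:**
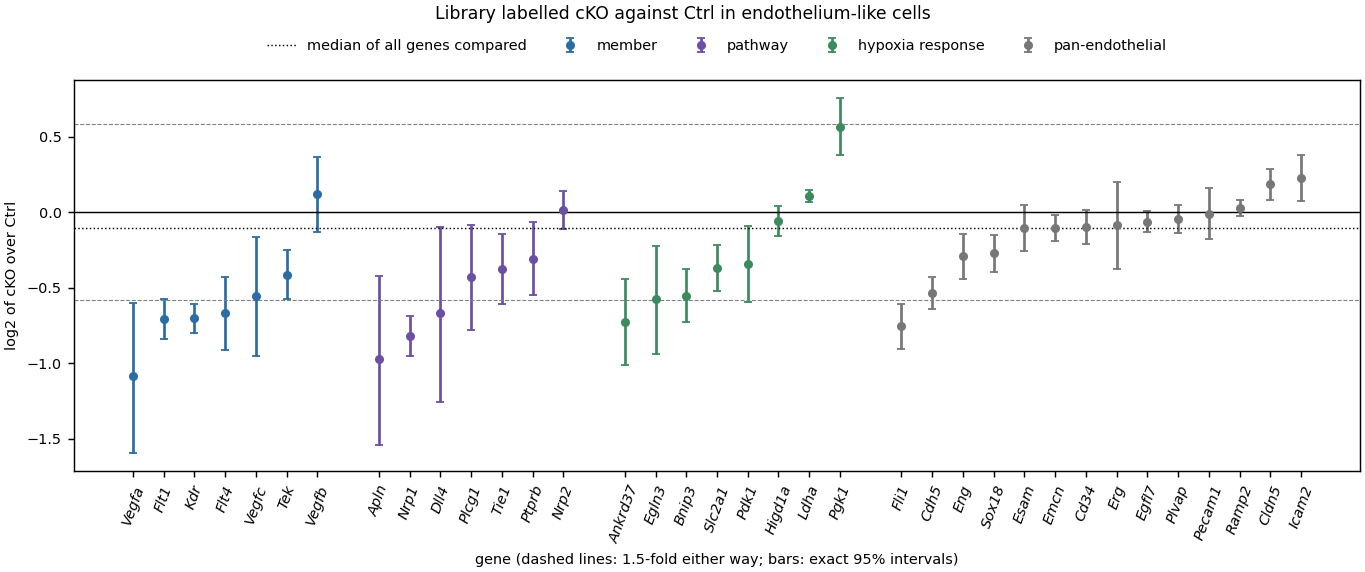
Log2 ratio of the library labelled cKO over Ctrl in endothelium-like cells for each gene compared, grouped as members, pathway genes, hypoxia-response genes and pan-endothelial markers, with exact 95% intervals. The dotted line is the median of all genes (-0.10) and the dashed lines are 1.5-fold either way. Vegfa, Flt1, Kdr and Flt4 lie below the lower dashed line, and of the pan-endothelial markers Fli1 does.

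Shares of cells with a UMI were compared after thinning each cell to 5000 UMIs, which left out 6 of 368 (Ctrl) and 12 of 377 (cKO) endothelium-like cells. Kdr was found in 73.5% (68.6 to 78.0) of endothelium-like cells in Ctrl and 58.9% (53.7 to 64.0) in cKO, and unthinned in 86.1% and 76.7%. Flt1 was found in 58.8% (53.6 to 64.0) and 43.6% (38.4 to 48.8), unthinned in 83.2% and 71.9%. Flt4 was found in 24.9% and 17.5%, unthinned in 52.4% and 37.7%. Tek was found in 39.0% and 38.6%, unthinned in 75.5% and 66.8%, so its thinned shares differed by less than the counting error. In BrM-like cells, read for comparison, the thinned shares in Ctrl and cKO were 0% and 2.03% for Flt1, 0% and 0.145% for Flt4 and 0.190% and 0.290% for Tek. A count of 0 in 526 Ctrl cells still allows 0.570%. Median UMIs before thinning were 16584 and 13957 in endothelium-like and 18406 and 14160 in BrM-like cells. Erythroid-like cells, found in cKO alone with a median of 25427 UMIs before thinning, gave 0.629% for Kdr, 1.26% for Flt1 and 0 of 159 cells for Flt4 and Tek, which allows up to 1.89%. Kdr in BrM-like cells, at 8.94% and 5.51%, was above these and is taken up below.

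Of the thinned endothelium-like cells, 93.4% (90.3 to 95.7) in Ctrl and 84.4% (80.2 to 88.0) in cKO held a UMI of at least 1 of the 4 receptors. All 4 were found together in 6.08% (3.85 to 9.06) and 2.74% (1.32 to 4.98). Kdr and Flt1 met in 44.8% (39.6 to 50.04) and 27.7% (23.1 to 32.6) of the cells, where the product of their single shares was 43.2% and 25.7%. Kdr and Flt4, both higher in the vascular-type cluster, met in 22.4% and 13.97% against products of 18.3% and 10.3%. Kdr and Tek met in 26.2% and 22.2% against 28.6% and 22.8%. The product lay inside the interval of each pair in each library, except for Kdr with Flt4 in cKO (10.6 to 18.0), and was at the lower bound for the same pair in Ctrl (18.2 to 27.0).

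Outside endothelium, Kdr was measured in several mesodermal classes. In Ctrl its next highest level was in MLP-like cells, at 48.6 CPM (44.8 to 52.8), followed by BrM-like cells at 27.3 (24.2 to 30.8) and CM-like cells at 26.3 (21.9 to 31.3), which did not differ beyond their intervals. The MLP-like level was 11.4% of the endothelial level, while the 14 pan-endothelial markers stood at a median of 0.520% of theirs in the same cells (0 to 24.02). In cKO, Kdr stood at 22.9 CPM (19.6 to 26.5) in CM-like, 19.1 (17.1 to 21.3) in MLP-like and 11.7 (9.70 to 13.97) in BrM-like cells. Within MLP-like cells of Ctrl the level was higher in the cluster led by Prdm1 and Rdh10 (68.9 CPM, 62.0 to 76.3) than in the cluster led by Irx1 and Ebf2 (31.8 CPM).

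Kdr was lower in cKO in all of the 6 classes where it could be compared, and past 1.5-fold in 5 of them, in SoM/aSHF-like cells against a background level. On the log2 scale the difference was -1.35 (-1.55 to -1.15) for MLP-like cells, with -1.90 in the cluster led by Prdm1 and -0.70 in the one led by Irx1, -1.22 (-1.55 to -0.91) in BrM-like cells and -2.84 (-3.46 to -2.27) in SoM/aSHF-like cells, where Kdr went from 11.05 to 1.55 CPM. The SoM/aSHF-like value was -1.77 in Y-only cells and -0.82 with clusters made without integration, where the class was 1 cluster of 430 and 763 cells. The difference was -0.60 (-0.98 to -0.22) in paraxial mesoderm-like cells, which passed 1.5-fold only just, stood at -0.38 in Xist-only cells, -0.54 when scaled by the median ratio and -0.45 at a resolution of 0.6, and changed sign, to 0.08, after thinning. In CM-like cells it was -0.20 (-0.54 to 0.15), which changed sign, to 0.07, in Xist-only cells. By cluster Kdr stood at 27.2 and 31.7 CPM in the one led by Myh6 and Actc1 and at 40.05 and 21.2 CPM in the one led by Myh7 and Tdgf1. The thinned share of MLP-like cells with Kdr was 16.3% (13.7 to 19.2) in Ctrl and 8.49% (6.90 to 10.3) in cKO. The SoM/aSHF-like share in cKO, 0.726%, could not be told from that in erythroid-like cells of the same library, 0.629% (0.0159 to 3.45, median 25427 UMIs), and is read as background. The Ctrl share, 2.38% (1.48 to 3.61), overlapped the same interval, while its level of 11.05 CPM (9.53 to 12.7) lay above the 2.39 CPM (1.15 to 4.399) of erythroid-like cells. The size of the SoM/aSHF-like difference is therefore not given by these counts. The BrM-like difference was carried by Y-only cells, as given below.

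Flt1 and Tek were also measured outside endothelium. Flt1 stood at 13.2 CPM in Ctrl and 7.16 in cKO in MLP-like cells (log2 -0.88, and -0.56 after thinning, short of 1.5-fold). Flt1 in epicardium-like cells stood at 44.8 CPM (34.7 to 56.9) in Ctrl and 24.3 (17.3 to 33.2) in cKO, 20.6% and 18.3% of the endothelial level, while the pan-endothelial markers were at medians of 0.0861% and 0.105% there. Tek in epicardium-like cells stood at 14.03 and 13.1 CPM. It was higher in an unnamed cluster led by Postn, Sfrp5 and Shox2 (419 and 795 cells), at 33.5 CPM (29.3 to 38.1) in Ctrl and 16.1 (13.8 to 18.7) in cKO. In BrM-like cells Flt1 had 3 UMIs in Ctrl and 34 in cKO, where its level of 3.29 CPM (2.28 to 4.59) overlapped the 1.67 CPM (0.673 to 3.45) of erythroid-like cells and could not be told from background. Flt4 had at most 9 UMIs in any other named class.

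Vegfa was measured in every class, and endothelium-like cells held the least of it in Ctrl. There it stood at 61.4 CPM (57.7 to 65.2) in SoM/aSHF-like, 52.9 (46.6 to 59.9) in CM-like, 50.8 (40.02 to 63.6) in epicardium-like, 45.9 (43.4 to 48.6) in pSHF-like, 37.6 in MLP-like, 36.3 in BrM-like, 29.7 in paraxial mesoderm-like and 19.5 (16.3 to 23.3) in endothelium-like cells. Of the 7 neighbouring pairs in this order, 5 had overlapping intervals, and the last step, to endothelium, did not. In cKO the order began with epicardium-like cells at 30.5 CPM (22.6 to 40.4) and SoM/aSHF-like cells at 21.4, and ended with MLP-like at 9.53, endothelium-like at 9.20 and BrM-like at 5.31.

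Vegfa was past 1.5-fold lower in cKO in all 8 classes, each with an interval below 0. The BrM-like level stood at 36.3 CPM in Ctrl and 5.31 (4.00 to 6.92) in cKO, and the second overlapped the 2.87 CPM (1.48 to 5.01) of erythroid-like cells, so the ratio (log2 -2.77, -3.21 to -2.36) is taken against a level near background. MLP-like cells were at 3.94-fold lower (-1.98, -2.25 to -1.72) and SoM/aSHF-like cells at 2.87-fold lower (-1.52, -1.69 to -1.35). Both MLP-like clusters showed it, at -2.23 and -1.85. With clusters made without integration the MLP-like cells of the libraries fell mostly into different clusters, 1 of 609 Ctrl and 24 cKO cells, with Nrg1 and Aplnr among its leading genes, and 2 of 250 and 974, with Pax8 among them, and of 178 and 529. The MLP-like values were then -1.98 for Vegfa, -1.33 for Kdr and 1.16 for Vegfc. The difference was smallest in paraxial mesoderm-like (1.69-fold, -0.76, -1.02 to -0.50) and epicardium-like cells (1.66-fold, -0.73, -1.28 to -0.20). In Xist-only cells these were -0.48 and 0.05, the second from 35.1 and 36.4 CPM, and the endothelial value was -0.55 after thinning. In thinned cells, 15.8% (12.8 to 19.2) of BrM-like cells had a Vegfa UMI in Ctrl and 2.32% (1.33 to 3.74) in cKO. The second share overlapped that of erythroid-like cells, 1.26% (0.153 to 4.47), and could not be told from background at this depth, and the unthinned shares in these cells were 6.91% and 6.92%. The thinned cKO shares of MLP-like (4.52%, 3.37 to 5.94) and endothelium-like cells (4.93%, 2.95 to 7.68) overlapped the same interval. Their levels, 9.53 CPM (8.13 to 11.1) and 9.20 CPM (6.80 to 12.2), lay above the erythroid-like level of 2.87 CPM (1.48 to 5.01).

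Vegfa is a classic target of the hypoxia-inducible factors, so genes of the same response were read beside it. Of 10 such genes, 8 could be compared in endothelium-like cells, where 1 was past 1.5-fold lower (Ankrd37, 48.4 and 29.3 CPM) and 0 higher, with a median of -0.36. In BrM-like cells 1 of 7 was lower (Ankrd37, 24.4 and 14.8 CPM) and 1 higher (Pgk1, 61.2 and 96.8 CPM), with a median of -0.25 beside -0.12 for all genes. In MLP-like cells 2 of 7 were lower (Pdk1, 41.9 and 22.7 CPM, and Ankrd37, 26.2 and 17.2 CPM) and 0 higher, with a median of -0.45, and in epicardium-like cells 2 of 8 were lower (Pdk1 and Egln3), with a median of -0.38. Of all genes, 12.0% were past 1.5-fold lower in endothelium-like, 14.2% in BrM-like, 13.4% in MLP-like, 11.5% in epicardium-like and 10.0% in pSHF-like cells. Past 1.5-fold higher were 1.91%, 3.93%, 2.67%, 6.45% and 1.62% of genes in these classes. In CM-like cells 1 of 8 hypoxia genes was lower (Pdk1, beside 10.7% of genes) and 1 higher (Pgk1, beside 3.05%). In paraxial mesoderm-like cells 1 of 7 was lower (Pdk1, beside 9.92%) and 1 higher (Pgk1, beside 4.42%). In SoM/aSHF-like cells 1 of 7 was lower (Pdk1, beside 10.9%) and 0 higher (beside 1.54%). In pSHF-like cells, where Vegfa was 2.24-fold lower, 0 of 7 passed 1.5-fold either way, and the median was 0.07. Of the list, Pdk1, a brake on mitochondrial fuel entry, was below 0 in each of the 8 classes, from -0.27 in pSHF-like to -0.98 in epicardium-like cells. Pgk1, a glycolytic enzyme, was above 0 in each of the 8 classes, from 0.22 in epicardium-like (-0.10 to 0.55) to 0.72 in CM-like cells (0.55 to 0.90). Ldha and Higd1a, the highest of the list, stood at 1576 and 1781 and at 205 and 221 CPM in BrM-like cells. Of the 5 oxygen regulators, Arnt, the partner of Hif1a, was below 0 in each class, at 15.5 and 9.08 CPM in BrM-like cells, and Hif1a and Egln1, the highest, stood at 93.3 and 73.3 and at 85.5 and 74.4 CPM there. Vhl, which marks Hif1a for breakdown, was past 1.5-fold lower in BrM-like (21.2 and 14.1 CPM), SoM/aSHF-like (18.4 and 11.7 CPM) and paraxial mesoderm-like cells (14.9 and 9.49 CPM). Lower were thus 2 of 4 regulators compared in BrM-like cells and 1 of 5 in endothelium-like cells. In SoM/aSHF-like, paraxial mesoderm-like, pSHF-like and epicardium-like cells it was 1 of 4. The shares of all genes past 1.5-fold lower in these classes are given above. The part of this response in the Vegfa difference was not tested.

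The Vegfa windows are shown for the words ACGTG and GCGTG, the cores of the sites that these factors bind, in capitals on either strand.
Vegfa, chr17:46032328-46032627, minus strand: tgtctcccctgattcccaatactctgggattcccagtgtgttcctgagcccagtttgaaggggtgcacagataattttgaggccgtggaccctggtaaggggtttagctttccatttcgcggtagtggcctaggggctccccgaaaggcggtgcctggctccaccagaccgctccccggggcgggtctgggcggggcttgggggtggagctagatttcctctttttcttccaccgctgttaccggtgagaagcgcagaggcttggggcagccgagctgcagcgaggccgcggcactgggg
Vegfa, chr17:46025114-46025413, minus strand: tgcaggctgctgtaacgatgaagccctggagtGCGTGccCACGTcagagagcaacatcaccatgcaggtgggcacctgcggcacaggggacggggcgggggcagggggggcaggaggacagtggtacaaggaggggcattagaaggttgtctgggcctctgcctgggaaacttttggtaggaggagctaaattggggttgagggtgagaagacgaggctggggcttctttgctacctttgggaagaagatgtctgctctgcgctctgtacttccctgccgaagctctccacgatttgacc
The window at the 5′ start of the gene, which lies at chr17:46016993-46032377, held 0 of these words, and the window at the inner start held 2. Of all windows, 43.8% held at least 1. A distant upstream site would lie outside both windows.

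**Figure D4:**
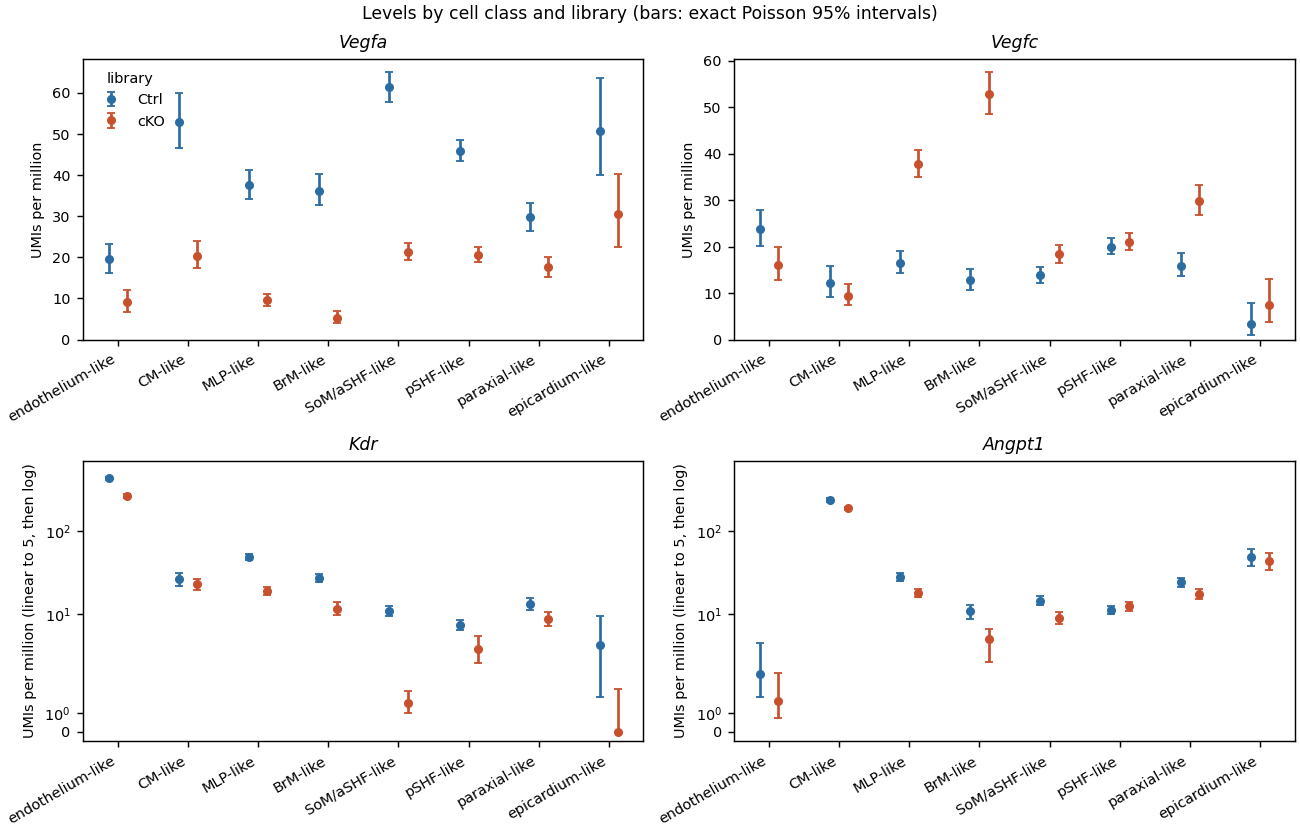
Levels of Vegfa, Vegfc, Kdr and Angpt1 in CPM in 8 classes, Ctrl in blue and cKO in orange, with exact Poisson 95% intervals. Vegfa is lower in cKO in the 8 classes (not in Xist-only epicardium-like cells, at 35.1 and 36.4), and Vegfc has an interval of the difference above 0 in the MLP-like, BrM-like, SoM/aSHF-like and paraxial mesoderm-like classes and below 0 in the endothelium-like class.

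Vegfc moved apart from Vegfa. Among the named classes of Ctrl it was highest in endothelium-like cells at 23.7 CPM (20.1 to 27.8), beside 24.6 (22.8 to 26.6) in the unnamed cells, with pSHF-like cells at 20.04 (18.4 to 21.8), and the other named classes lay between 3.34 and 16.6 CPM. In cKO it was highest of the named classes in BrM-like cells at 52.9 CPM (48.6 to 57.6), ahead of MLP-like cells at 37.8 (34.9 to 40.8) and paraxial mesoderm-like cells at 29.9 (26.8 to 33.2), whose intervals did not overlap. Endothelium-like cells of cKO held 16.1 CPM (12.9 to 19.9).

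Thus Vegfc was 4.16-fold higher in cKO in BrM-like cells (log2 2.06, 1.78 to 2.35), 2.28-fold higher in MLP-like cells (1.19, 0.96 to 1.43, with 2.15 in Xist-only and 0.49 in Y-only cells) and 1.88-fold higher in paraxial mesoderm-like cells (0.91, 0.64 to 1.18). In pSHF-like cells it stood at 20.04 and 21.1 CPM (0.07, -0.10 to 0.25). In cKO the BrM-like class thus had the highest Vegfc of the named classes and a Vegfa level, 5.31 CPM (4.00 to 6.92), whose interval overlapped that of endothelium-like cells (6.80 to 12.2). In thinned BrM-like cells, 6.08% (4.198 to 8.48) had a Vegfc UMI in Ctrl and 22.3% (19.3 to 25.6) in cKO, beside 0 of 159 erythroid-like cells (0 here allows 1.89%). A paraxial cluster of 142 and 117 cells showed 18.9 and 53.3 CPM, and the MLP-like clusters 7.26 and 29.0 CPM where led by Prdm1 (log2 1.997) and 24.3 and 43.9 CPM where led by Irx1 (0.85). Vegfc lies at chr8:54077532-54186454.

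Vegfb was the most even ligand. It was highest in CM-like cells, at 115 CPM (106 to 125) in Ctrl and 136 (128 to 145) in cKO, and lowest in endothelium-like cells, at 44.8 (39.8 to 50.3) and 48.6 (42.9 to 54.9). The 6 other classes lay between 76.2 and 93.5 CPM in Ctrl and between 88.8 and 108 CPM in cKO. It was above 0 in each of the 8 classes on the log2 scale, by 0.12 to 0.39, with an interval above 0 in 6 of them, and passed 1.5-fold in 0. Erythroid-like cells held 15.8 CPM (12.2 to 20.1). Vegfb lies at chr19:6982472-6987651.

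Angpt1 was highest in CM-like cells, which held 1116 of 4694 Angpt1 UMIs in Ctrl and 1426 of 5398 in cKO. There it stood at 234 CPM (221 to 249) in Ctrl and 187 (177 to 196) in cKO, ahead of epicardium-like cells at 48.1 (37.6 to 60.6) and 43.6 (34.0 to 55.1). Endothelium-like cells, which hold its receptor Tek, were at 3.103 (1.90 to 4.79) and 1.69 (0.772 to 3.21). Among the 3 CM-like clusters the one led by Myh6 and Actc1 (133 and 281 cells) held 449 CPM (422 to 477) in Ctrl and 310 (293 to 327) in cKO. The cluster led by Myl2 and Myh7, ventricular genes, held 47.5 and 44.3 CPM, and the cluster led by Myh7 and Tdgf1 13.9 and 10.3 CPM. The unnamed cluster with Postn, Sfrp5 and Shox2, in which Tek was also found, held 158 (149 to 168) and 159 (151 to 167), which came to 1091 and 1696 UMIs.

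Between the libraries, Angpt1 was past 1.5-fold lower in cKO in 3 of the 7 classes compared. These were BrM-like cells at 10.8 and 5.02 CPM (log2 -1.11, -1.61 to -0.62), SoM/aSHF-like cells at 14.6 and 9.06 (-0.69, -0.98 to -0.40) and MLP-like cells at 28.2 and 18.0 (-0.65, -0.87 to -0.42). Of these, the BrM-like value alone stayed past 1.5-fold under each alternative. The SoM/aSHF-like value was -0.19 in Y-only cells (11.7 and 10.2 CPM), and 2 further alternatives left it at -0.49 and -0.57. The MLP-like value was short of 1.5-fold under 6 alternatives, down to -0.31 without integration, and by cluster it was -0.93 (-1.20 to -0.66) in the one led by Irx1 and -0.04 (-0.49 to 0.41) in the one led by Prdm1. In CM-like cells it was 1.26-fold lower (-0.33, -0.44 to -0.22), and between -0.55 and -0.04 over the alternatives. Angpt1 stood there at 277 (Ctrl) and 190 CPM (cKO) in Xist-only cells and at 197 and 191 CPM in Y-only cells. By cluster it was -0.54 (-0.65 to -0.42) in the one led by Myh6. It was -0.10 (-0.60 to 0.41) in the one led by Myl2 and -0.44 (-1.54 to 0.65) in the one led by Myh7 and Tdgf1. A UMI of it was found in 43.3% (37.2 to 49.5) and 44.5% (39.97 to 49.2) of thinned CM-like cells, beside 1.38% and 1.10% in endothelium-like cells. Angpt1 lies at chr15:42424667-42676977.

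Angpt2 was low in all classes, at most 9.88 CPM (8.17 to 11.8), in MLP-like cells of Ctrl, and by class was not compared between libraries. Its class levels in neighbouring order overlapped throughout, 7 of 7 pairs in either library. By cluster it stood out in Ctrl in the CM-like cluster led by Myh7 and Tdgf1, at 27.0 CPM (18.6 to 37.9, 33 UMIs in 73 cells) against 8.89 (4.73 to 15.2) in cKO (log2 -1.60, -2.65 to -0.64), and in the MLP-like cluster led by Prdm1 at 14.5 (11.5 to 18.1) against 2.67 (1.61 to 4.17) (-2.44, -3.25 to -1.70). Angpt2 lies at chr8:18690263-18741562.

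Read by class, the members past 1.5-fold lower and higher in cKO were as follows, by the main values. Not every call held under each alternative. On the log2 scale, Kdr stood at 0.63 in Xist-only BrM-like cells and at 0.08 in thinned paraxial mesoderm-like cells. Angpt1 stood at -0.19 in Y-only SoM/aSHF-like cells and at -0.31 in MLP-like cells without integration. Vegfa stood at 0.05 in Xist-only epicardium-like cells, and Kdr in SoM/aSHF-like cells was read against background. In MLP-like cells 4 of 6 compared were lower (Vegfa, Kdr, Flt1, Angpt1) beside 13.4% of genes, and 1 was higher (Vegfc) beside 2.67%. In BrM-like cells 3 of 5 were lower (Vegfa, Kdr, Angpt1) beside 14.2%, and 1 was higher (Vegfc) beside 3.93%. In SoM/aSHF-like cells 3 of 5 were lower (Vegfa, Kdr, Angpt1) beside 10.9%, and 0 higher beside 1.54%. In paraxial mesoderm-like cells 2 of 5 were lower (Vegfa, Kdr) beside 9.92%, and 1 was higher (Vegfc) beside 4.42%. In epicardium-like cells 2 of 5 were lower (Vegfa, Flt1) beside 11.5%, and 0 higher beside 6.45%. CM-like cells had Vegfa alone lower, 1 of 5, beside 10.7%, and 0 higher beside 3.05%. In pSHF-like cells Vegfa alone was lower, 1 of 4, beside 10.0%, and 0 higher beside 1.62%. The median log2 ratio over all genes lay between -0.12 and -0.06 in these classes, so a part of each lower value of that size is shared by the whole profile.

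Vegfa and its receptor Kdr were read together in single thinned cells, where low single shares make a joint detection rare. A UMI of both Vegfa and Kdr was found in 1.32% (1.06 to 1.63) of all thinned cells in Ctrl and 0.338% (0.228 to 0.482) in cKO, beside products of the single shares of 1.79% and 0.472%, of which the first lay outside the interval and the second inside it. In endothelium-like cells both were found in 5.80% (3.63 to 8.73) and 1.92% (0.774 to 3.91), beside products of 5.68% and 2.90%. In MLP-like cells both were found in 3.06% (1.93 to 4.60) and 0.646% (0.260 to 1.33), beside 2.97% and 0.384%.

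Each pool held cells with only Xist and cells with only Y-linked UMIs, 3371 and 2647 in Ctrl and 5083 and 2778 in cKO, and hence embryos of both sexes. This split gave a view of the spread inside each library, in which sex and embryo cannot be told apart. Vegfa in BrM-like cells stood at 32.7 (Xist-only) and 42.9 CPM (Y-only) in Ctrl and at 4.30 and 7.36 CPM in cKO. Kdr in endothelium-like cells stood at 437 and 434 CPM in Ctrl and at 271 and 251 CPM in cKO, so the subsets of a library lay closer together than the libraries did. Flt1 stood at 219 and 217 CPM in Ctrl and at 142 and 121 CPM in cKO. Tek, at 113 and 146 CPM in Ctrl and at 103 and 94.8 CPM in cKO, differed between the Ctrl subsets by about as much as between the libraries. Vegfc in BrM-like cells stood at 12.5 and 12.1 CPM in Ctrl and at 53.4 and 50.3 CPM in cKO.

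Other results differed more between the subsets of Ctrl. Kdr in BrM-like cells stood at 8.31 CPM (Xist-only, 48 UMIs) and 52.1 CPM (Y-only, 181 UMIs), a log2 difference of 2.65 (2.18 to 3.14), and the cKO subsets at 12.9 and 11.04 CPM. Kdr in paraxial mesoderm-like cells of Ctrl stood at 10.6 and 21.1 CPM (0.99, 0.44 to 1.53), a wider gap than that between the libraries, and in SoM/aSHF-like cells at 12.4 and 6.83 CPM (-0.86, -1.41 to -0.34). Angpt1 was lower in Y-only than in Xist-only Ctrl cells in each of the 7 classes outside endothelium, with intervals below 0 in CM-like (-0.49), SoM/aSHF-like (-0.48), pSHF-like (-0.56), paraxial mesoderm-like (-0.93) and epicardium-like cells (-0.95). Vegfc in MLP-like cells of Ctrl also differed, at 9.21 and 24.8 CPM (1.43, 0.96 to 1.92), with both cKO subsets higher, at 40.8 and 34.9 CPM.

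**Figure D5:**
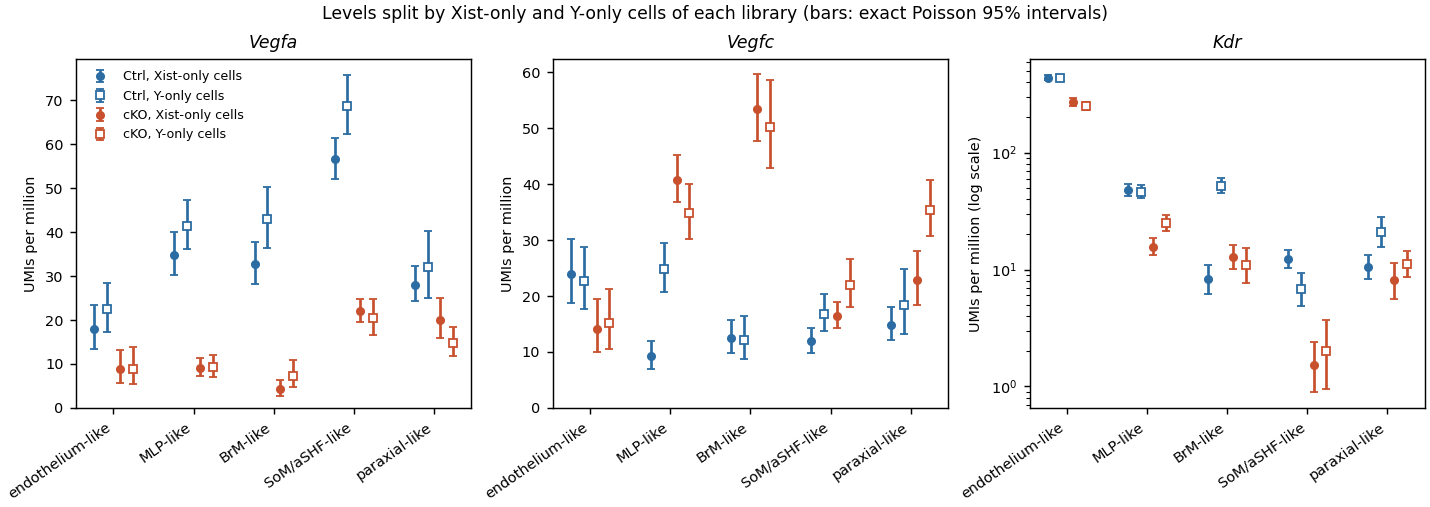
Levels of Vegfa, Vegfc and Kdr in CPM in 5 classes, split into Xist-only (filled circles) and Y-only cells (open squares) of Ctrl (blue) and cKO (orange), with exact Poisson 95% intervals; the Kdr axis is logarithmic. Both cKO subsets lie below both Ctrl subsets for Vegfa in BrM-like cells, and the Ctrl subsets of Kdr in BrM-like cells lie apart, at 8.31 and 52.1.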

How the data were processed

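The deposited values are raw UMI counts per gene and cell barcode, which the authors made with Cell Ranger 3.1.0 on the mm10 build (per the labels) as filtered matrices of 27998 genes from 3′ libraries. Both libraries are single samples. Such counts do not separate splice forms, among them soluble Flt1 and the Vegfa isoforms.

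Cells were kept with at least 1000 genes and at most 10% mitochondrial UMIs, which left out 411 (Ctrl) and 508 (cKO). Scrublet (scanpy 1.11.5) called 0% and 7.81% by its own threshold, so the 416 and 804 highest-scoring cells were removed (0.8% per 1000 recovered). Clusters came from Seurat 5.3.0 in R 4.3.3 (2000 variable genes, 30 dimensions, reciprocal PCA integration, resolution 1). The 9 genes, the pathway, oxygen and hypoxia lists, and genes that are sex-linked, mitochondrial or code for haemoglobin or ribosomal proteins (180 in all) were left out of clustering, and so were 461 genes at least 2-fold apart between libraries within provisional clusters. A cluster was named from marker lists, where at least 10% of its cells held a marker at a level 0.5 (log2) above the other clusters.

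Counts were summed per class and library. Intervals are exact Poisson for levels, exact conditional for ratios and Clopper-Pearson for shares, at 95%. A count of 0 was given the limit of 3 counts. Levels were compared with at least 30 UMIs in all and 10 CPM in one. A fold of 2 (endothelium) or 1.5 (libraries) marked a difference, with no test. The ratio code was tested on simulated data. The members, lists and markers were chosen with earlier results of these data known. The text names all 9 members, and of the pathway, oxygen and hypoxia lists those past 1.5-fold between libraries in a class and the 2 highest. By the 2-fold mark for endothelium, the oxygen regulator Epas1 also passed in Ctrl, at 11.01 CPM in endothelium-like against 0.91 CPM in other cells. In cKO its level was too low to be compared. Alternatives covered doublets, clustering, a gate of 4 of 10 endothelial markers, scaling, thinning, minimum counts, folds and each sex alone. Promoters and positions came from RefSeq (GRCm38), the same assembly as mm10. Classes with under 50 cells in a library were not compared, so erythroid-like cells (0 and 159) served only as background.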

Additional observations from a re-analysis of the deposited data

Results flagged for a closer look

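Vegfc differed between the libraries in opposite directions by class, with intervals on either side of 0. The log2 ratio of cKO over Ctrl was -0.56 (-0.95 to -0.17) in endothelium-like cells, and 2.06 in BrM-like, 1.19 in MLP-like, 0.91 in paraxial mesoderm-like and 0.41 (0.17 to 0.65) in SoM/aSHF-like cells. The difference between the classes was not tested.

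Within the pools, 2 further results went in opposite directions in Xist-only and Y-only cells with both intervals off 0, also untested. Kdr in BrM-like cells had log2 ratios of 0.63 (0.09 to 1.19) in Xist-only and -2.24 (-2.80 to -1.72) in Y-only cells. Angpt1 in paraxial mesoderm-like cells had -1.01 (-1.49 to -0.57) and 0.60 (0.02 to 1.21), where Ctrl held 389 Xist-only and 125 Y-only cells of the class and cKO 263 and 350.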

How the results depend on the processing

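No paired analysis was possible because each group is 1 library. Over the alternatives run, 59 of 62 recomputed counts stayed within 1.5 times the reported ones. The exceptions follow from the alternative's own rule: at 2-fold between libraries, 1 member passed in endothelium-like cells instead of 4, and 11 pairs of member and class passed elsewhere instead of 19, and with no minimum of UMIs 36 passed there. With the median ratio over genes set to 1, 3 members passed in endothelium-like cells and 16 pairs elsewhere. With endothelium taken by the marker gate (352 and 355 cells), 5 members passed. The 4 receptors stayed past the fold in endothelium of both libraries under each alternative, a fold of 4 included. Of 685 single values, 600 stayed inside the main value's interval, and of the values past the fold 3 changed sign: Kdr in BrM-like cells (0.6338) and Vegfa in epicardium-like cells (0.0531), both in Xist-only cells, and Kdr in paraxial mesoderm-like cells after thinning (0.0809). The causes were not tested. Of the 10 leading classes of ligands, 8 held in Y-only cells and 9 with other clusterings. With 1 library per group, the spread between embryos of a genotype is unknown apart from the Xist and Y split of each pool. That split cannot tell embryo from sex. Depth limits Angpt2 and Flt4 outside endothelium.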

Other observations

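Further genes of the pathway had sites of their own outside endothelium. Pgf, a ligand of Flt1, stood at 59.8 CPM (Ctrl) and 59.4 CPM (cKO) in BrM-like cells and at 45.5 and 46.1 CPM in MLP-like cells, against 2.64 and 5.44 CPM in endothelium-like cells. Nrp1 stood at 412 and 278 CPM in epicardium-like cells, above its endothelial level of 226 and 128 CPM. By class average Nrp2 was highest in BrM-like cells, at 314 CPM in Ctrl and 198 CPM in cKO (log2 -0.67, -0.75 to -0.59). By cluster it was higher still in the CM-like cluster led by Myh7 and Tdgf1, at 659 and 359 CPM. Ccbe1, which helps to activate Vegfc outside the cell, stood at 18.7 and 7.73 CPM in SoM/aSHF-like cells (-1.28, -1.57 to -0.99) and at 26.1 and 11.2 CPM in epicardium-like cells.

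Genes whose levels followed the members most closely were taken by Pearson's r of log2(CPM + 1) over 45 combinations of cluster and library, among 8284 genes. These points share 2 libraries, so r is a description only. Flt4 had the closest, Myct1 and Gimap4 (r = 0.98 each) and Ctla2b (0.98). Tek was followed by Ehd2 and Ednrb (0.87 each), Flt1 by Prkch (0.83) and Esam (0.82), Kdr by Irf2 and Exoc3l4 (0.79 each), Angpt1 by Vsnl1 (0.80), Vegfa by Ywhag and Cnot7 (0.87 each), Vegfb by Cuta (0.85), Vegfc by Whsc1l1 (0.73) and Angpt2 by Il17rd (0.66).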
